A study of Caenorhabditis elegans with 4 samples.

Results

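Among nuclei sorted from whole adult worms, a set was marked by a group of mostly uncharacterised genes at and around the F02H6 clone of chromosome IV and at clones of chromosomes II, IV and V. A nucleus was a member when it held at least 1 UMI (unique molecular identifier, the tag of a single transcript molecule) in 4 or more of 10 rule genes: T10C6.7, T06D4.1, F02H6.1, F02H6.2, F02H6.3, C50E3.13, C50E3.12, F43D2.2, F14H3.6 and T11F8.2. Nuclei with a UMI in 3 or more of the 4 genes Y46H3C.7, Y51H7C.42, Y51H7C.15 and Y46H3C.5 were left out. The rule gave 2058 member nuclei among 52147 nuclei of 4 libraries, or 3.95%.

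The worms were day 1 adults of Caenorhabditis elegans, taken whole, and their Hoechst-stained nuclei were sorted and profiled on the 10x Genomics platform. The ctrl library came from the N2 wild type on HT115 bacteria carrying the empty L4440 vector, and the ent-1KO and ent-2KO libraries came from the single CRISPR knockouts of the nucleoside transporter genes ent-1 and ent-2 on the same bacteria. The ent-1KO;ent-2KD library came from the ent-1 knockout fed HT115 bacteria making double-stranded RNA against ent-2, which acts in the whole animal. Values below are given in the order ctrl, ent-1KO, ent-2KO and ent-1KO;ent-2KD. Each condition had 1 library, so no test between conditions was possible, the variation between worm cultures is unknown, and 95% intervals (exact Clopper-Pearson for shares, exact Poisson for counts) cover counting error only.

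In the hermaphrodite gonad, germ nuclei divide at the distal end, pass through meiotic prophase, and are then packed into oocytes that grow in single file towards the spermatheca. Growing oocytes store maternal transcripts, many of them held silent by RNA-binding proteins such as LIN-41 and the OMA proteins, and take up yolk through the receptor RME-2. The X chromosome is kept largely silent in early germ nuclei and is used in oocytes. The rule genes have sequence names only, and T11F8.2, F02H6.1 and F43D2.2 are annotated as pseudogenes.

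Sequencing gave 21009254, 32714922, 26390135 and 32120382 UMIs in all, and the median nucleus had 1414, 1758, 1709 and 1871. Member nuclei were deeper, with medians of 2961, 3603, 3205 and 4294 UMIs, and a rule based on detection favours deep nuclei. Pairs of libraries shared 43 to 61 barcodes, at most 0.465% of either library. In member nuclei ent-1 was measured at 86.6, 17.4, 104.4 and 20.4 CPM. CPM is a gene's count scaled to counts-per-million of the UMIs summed over a set of nuclei. Both libraries of the ent-1 knockout were thus below the other pair, and whether the counted tags lie outside the deleted part of ent-1 was not checked. The transcript of ent-2 gave only 11, 26, 5 and 5 UMIs in members, too few to check the ent-2 labels there.

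The rule genes lie in short runs on 3 chromosomes. All 46926 features of the count matrices have a position in the WBcel235 annotation, from which the following coordinates come. F02H6.2 (chromosome IV, 14196476 to 14198802), F02H6.1 (14199263 to 14201780) and F02H6.3 (14203427 to 14205354) follow each other on the plus strand with gaps of 460 and 1646 bases between gene spans. C50E3.12 and C50E3.13 lie 265 bases apart on the minus strand of chromosome V (7620504 to 7624252). T10C6.7 (16027445 to 16031713) and F14H3.6 (16057322 to 16058893) lie 25608 bases apart on the minus strand of the same chromosome, and F43D2.2 (14635582 to 14637751) lies farther off on it. T11F8.2 is on chromosome IV (5477214 to 5478708) and T06D4.1 on chromosome II (3381830 to 3384025).

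Member nuclei made up 449 of 11666 nuclei in ctrl (3.85%, interval 3.51 to 4.21), 762 of 14935 in ent-1KO (5.10%, 4.75 to 5.47), 611 of 12425 in ent-2KO (4.92%, 4.54 to 5.31) and 236 of 13121 in ent-1KO;ent-2KD (1.80%, 1.58 to 2.04). The share was lowest in ent-1KO;ent-2KD, the library with the deepest nuclei, and highest in the single knockouts. After every nucleus was thinned to 500 UMIs, 0.471%, 0.696%, 0.805% and 0.0686% still met the rule. These were 55 nuclei in ctrl and 9 in ent-1KO;ent-2KD, again the lowest. The rule for exclusion took 278, 495, 397 and 310 nuclei that had 4 or more rule genes, which was 38.2%, 39.4%, 39.4% and 56.8% of such nuclei. It therefore weighed most on ent-1KO;ent-2KD, and without it the shares were 6.23%, 8.42%, 8.11% and 4.16%.

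The libraries also differed in their share of oocyte nuclei, and the part of this in the member shares was not tested. Nuclei with a UMI in 8 or more of 12 growing oocyte genes (lin-41, oma-1, oma-2, puf-3, puf-5, puf-11, rme-2, spn-4, egg-1, egg-2, cbd-1 and chs-1) and under 3 of the excluded genes made up 11.01%, 17.05%, 16.02% and 7.63% of the libraries. Members were 353 of 1284 of these oocyte nuclei in ctrl (27.5%, 25.07 to 30.0), 694 of 2547 in ent-1KO (27.2%, 25.5 to 29.0), 522 of 1990 in ent-2KO (26.2%, 24.3 to 28.2) and 208 of 1001 in ent-1KO;ent-2KD (20.8%, 18.3 to 23.4). Within oocyte nuclei the ctrl and single-knockout shares thus overlapped in their intervals, and the ent-1KO;ent-2KD share lay below them although its oocyte nuclei had the highest median depth, 3840 UMIs against 2988, 3301 and 3103. Before the exclusion, nuclei with 8 or more growing oocyte genes numbered 1459, 2958, 2298 and 1395, so it weighed most on ent-1KO;ent-2KD here too. The share with 4 or more rule genes was not taken over these, and the part of the exclusion in the lower share was not tested. Of nuclei with 4 or more genes of a somatic list and under 4 of the growing oocyte genes, the rule found 7 of 5772, 4 of 6603, 2 of 5059 and 3 of 9752, at most 0.121%, at median depths of 1032 to 1553 UMIs.

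Detection of the rule genes fell off without a gap at the threshold. Nuclei with exactly 3 rule genes, just outside, numbered 134, 233, 146 and 123 at median depths of 2252, 2541, 2476 and 2960 UMIs. Nuclei with exactly 4, just inside, numbered 111 in ctrl and 82 in ent-1KO;ent-2KD at 2598 and 3501 UMIs. The tail beyond was long in the first 3 libraries and short in ent-1KO;ent-2KD. Nuclei with 8 or more rule genes numbered 111, 240, 189 and 29, and all 10 genes were detected in 16, 50, 39 and 2.

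**Figure D1:**
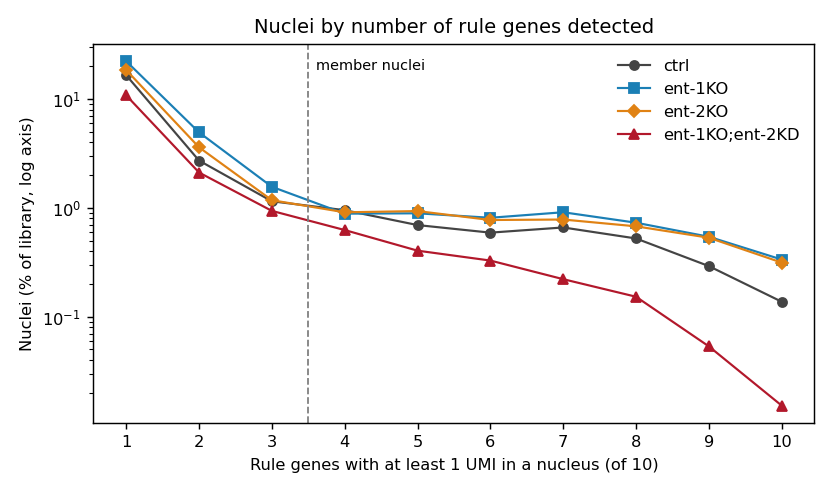
Percent of each library's nuclei (log axis) by the number of rule genes with at least 1 UMI, over nuclei not left out by the excluded genes; the dashed line is the threshold. The curves of ctrl, ent-1KO and ent-2KO flatten beyond the threshold, while that of ent-1KO;ent-2KD keeps going down to 2 nuclei with all 10 genes.

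The oocyte label was checked against genes that the rule did not read. Members held 8 or more of the 12 growing oocyte genes in 353 (78.6%), 694 (91.1%), 522 (85.4%) and 208 (88.1%) nuclei, against 9.86%, 15.97%, 15.03% and 9.21% of all other nuclei. The 12 genes together reached 6853, 8194, 8224 and 8482 CPM in members and 3393, 3824, 3813 and 2125 CPM in all other nuclei. The label therefore held on these markers. These markers were read in the nuclei that the rule chose, so their levels are a description and carry no test.

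Against all other nuclei, 7 of the 12 growing oocyte genes were at least 2-fold higher in members of each library (lin-41, oma-2, puf-3, puf-11, spn-4, egg-1 and egg-2) and none was lower. Of all 7502 genes compared, 3.81% were at least 2-fold higher in each library and 820 (10.9%) at least 2-fold lower. Of 28 maternal RNA-binding regulators, 12 were higher and none lower. They included nos-2, a Nanos gene of the germline, at 307, 343, 368 and 374 CPM in members and 58.3, 79.1, 67.2 and 65.3 CPM in other nuclei, so that every member value was above every other value. Of 14 eggshell and egg activation genes, 4 were higher (egg-1, egg-2, cpg-1 and cpg-3) and 2 lower (perm-2 and perm-4, which act in the eggshell's permeability barrier). The median log2 ratio over all genes was -0.04, -0.09, -0.12 and 0.16, so this comparison is shifted a little upwards in ent-1KO;ent-2KD.

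Most genes of earlier germline stages were not 2-fold different from other nuclei in each library. The same held over all genes compared, of which 3.81% were higher and 10.9% lower. The other nuclei mix germline and somatic nuclei, so these counts do not place members by stage. Of 14 synaptonemal complex and axis genes only lab-1, whose product protects meiotic cohesion, was 2-fold higher in each library, and of 14 pairing and break genes only zyg-12. None of 18 recombination genes was 2-fold higher or lower in each library. Of 16 mitotic zone and replication genes, 3 were higher (sygl-1, mcm-3 and rnr-2). The stem cell gene sygl-1 stood at 441, 409, 520 and 109 CPM in members and at 81.4, 75.8, 86.6 and 25.4 CPM in other nuclei, and it was lowest in the members of ent-1KO;ent-2KD. Of 21 Argonaute and small RNA genes none was higher and alg-1 was lower, and of 14 P granule genes glh-2 and meg-1 were higher.

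Transcripts of other tissues were present in members at reduced levels. Of 12 muscle genes 10 were at least 2-fold lower than in other nuclei of each library, beside 10.9% of all genes compared. Of 10 neuron genes 6 were lower, and of 8 gonadal sheath and spermatheca genes 4 (lim-7, ceh-18, plc-1 and spv-1). Of 8 hypodermis genes 2 were lower and of 4 pharynx genes 1, while of 12 intestine genes none was. The somatic lists together were in members at 48.3%, 42.4%, 43.4% and 37.2% of their level over all nuclei of the library. Ribosomal protein genes took 4.00%, 4.55%, 3.91% and 4.98% of member UMIs. The part of free RNA in the members' values was not tested.

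A closer comparison was made with oocyte nuclei that held under 4 of the rule genes. This set, chosen after the data had been seen, held the 931, 1853, 1468 and 793 other nuclei with 8 or more of the 12 growing oocyte genes and under 3 excluded genes, and is called the other oocyte nuclei. Their median depths were 2895, 3181, 2987 and 3657 UMIs. Of them 436 (46.8%), 858 (46.3%), 650 (44.3%) and 424 (53.5%) held 1 to 3 rule genes. The levels of oocyte genes differed between the sets as well, so the comparison does not hold the state of the oocyte equal.

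Each rule gene was far lower in the other oocyte nuclei, which follows from the rule and is given as a description. F02H6.1 stood at 236, 208, 265.8 and 37.8 CPM in members and at 3.14, 3.95, 3.62 and 1.09 CPM in the other oocyte nuclei. F02H6.2 stood at 473, 431, 435 and 225 CPM against 25.5, 26.5, 30.3 and 19.4, and F02H6.3 at 327, 309, 326 and 205 CPM against 19.8, 10.9, 14.5 and 25.14. The ent-1KO;ent-2KD members were the lowest for each of these genes of the F02H6 clone.

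T10C6.7 stood at 725, 801, 907 and 216 CPM in members, against 28.9, 29.1, 26.5 and 30.6 in the other oocyte nuclei and 31.4, 46.8, 31.1 and 7.97 in somatic nuclei (4 or more genes of a somatic list and none of the germline sets). In ent-1KO the level was higher in somatic nuclei (interval 42.1 to 51.8) than in the other oocyte nuclei (25.03 to 33.6), in ctrl and ent-2KO the intervals overlapped, and in ent-1KO;ent-2KD it was lower in somatic nuclei. F14H3.6 differed in this respect, at 746, 773, 818 and 702 CPM in members, 141, 123, 106.2 and 162 in the other oocyte nuclei, and lower in somatic nuclei. Of the 10 genes it also varied least between the libraries' members.

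**Figure D2:**
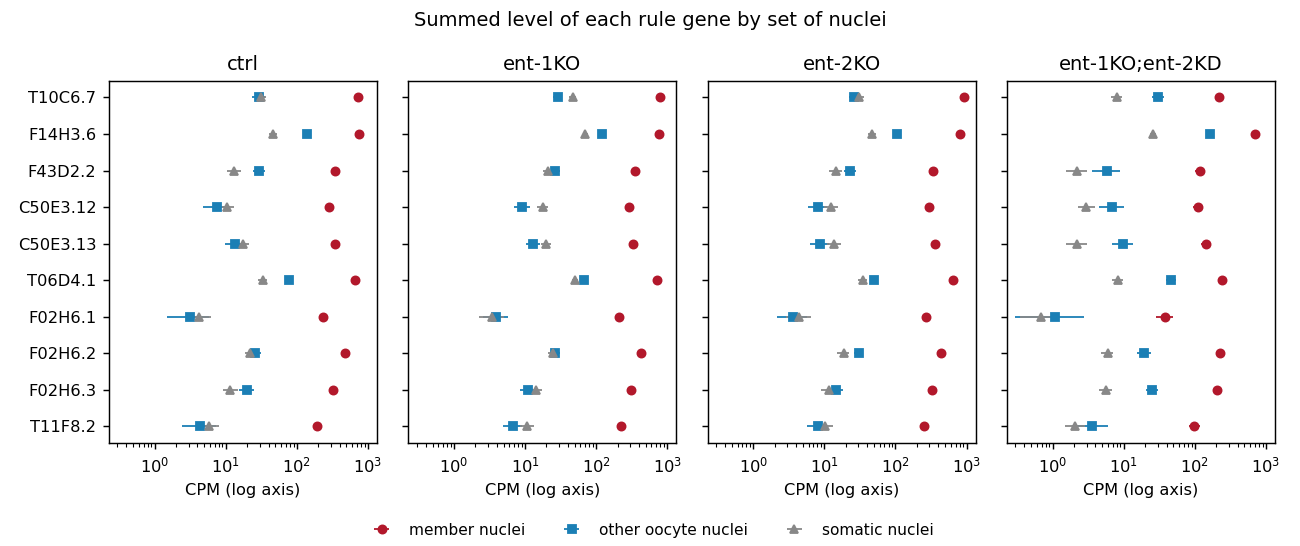
Summed CPM (log axis) of each rule gene in member nuclei, other oocyte nuclei and somatic nuclei of each library, with 95% Poisson intervals for counting error. In every panel the member point lies to the right of both other points, as the rule requires, and in ent-1KO;ent-2KD the member points shift to the left except that of F14H3.6, at 702 CPM.

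The rule genes were found together also when the gene in question was left out of the rule. Among nuclei with 4 or more of the other 9 genes, F14H3.6 was detected in 84.4%, 88.9%, 87.3% and 90.2%, against 10.3%, 14.4%, 12.2% and 11.3% of the nuclei outside. T10C6.7 was detected in 77.2%, 81.7%, 85.8% and 59.5%, against 7.37%, 10.0%, 9.46% and 4.69%. F02H6.1, the gene detected least, was found in 39.3%, 38.1%, 40.8% and 13.97%, against 1.55%, 1.91%, 1.84% and 0.752%. In somatic nuclei, which should lack an oocyte transcript, F02H6.1 was detected in 0.478%, 0.467%, 0.550% and 0.117% at median depths of 967 to 1522 UMIs. The genes had been picked as a set from these data, so their joint detection is a description. Over all 2058 members, detection ran from 37.9% for F02H6.1 to 89.7% for F14H3.6, with T06D4.1 at 82.9%, T10C6.7 at 82.2%, F02H6.2 at 68.4% and F02H6.3 at 58.6%.

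Some neighbours of the rule genes were also high in members. The clones of the rule genes were read in full. Of the 4 F02H6 genes with at least 20 UMIs in the members of each library, all 4 were at least 2-fold higher than in other nuclei, the fourth being the pseudogene F02H6.4. It stood at 370, 318, 329 and 217 CPM in members and at 50.3, 50.6, 50.7 and 29.3 CPM in other nuclei, a member level more than 6-fold higher in each library. Directly upstream, K01G12.3 ends 320 bases before F02H6.2, on the same strand. It stood at 77.4, 87.8, 69.2 and 30.2 CPM in members and at 1.89, 1.58, 0.762 and 3.28 CPM in the other oocyte nuclei. From K01G12.3 (from 14193496) to F02H6.4 (to 14219159) the run thus held 5 adjacent genes on the plus strand of chromosome IV, short piRNA genes between them aside. Each was higher in members, which for the rule genes among them follows from the rule. The tail of the clone was different: F02H6.6 and F02H6.7, on the minus strand, had no UMI in the members of ctrl.

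On chromosome V, T10C6.10 stood at 375, 404, 529 and 144 CPM in members and at 15.4, 23.1, 16.4 and 17.8 CPM in the other oocyte nuclei. Next to F14H3.6, F14H3.4 stood at 101, 122, 121 and 52.9 CPM against 3.46, 5.69, 3.24 and 7.11. C50E3.11, in the clone of C50E3.12 and C50E3.13, stood at 99.9, 122, 113.01 and 55.1 CPM against 12.3, 7.11, 7.62 and 12.3. Each of these neighbours was higher in the members of every library. Not every neighbour was: C50E3.5 stood at 93.2, 93.2, 95.4 and 105.7 CPM in members and at 99.3, 98.5, 93.8 and 94.6 in the other oocyte nuclei. T10C6.6, whose end overlaps T10C6.7 on the other strand, stood at 58.9, 77.2, 73.2 and 155 CPM, against 98.4, 94.5, 102 and 160.

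On chromosome IV, T11F8.1 lies beside the rule gene T11F8.2. It stood at 204, 239, 249 and 96.7 CPM in members and at 14.1, 14.7, 14.7 and 14.8 CPM in the other oocyte nuclei. Genes in such clusters can be near copies of each other, and reads shared between copies may be split or lost in counting, which was not tested.

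Over the genome, 67 genes, the rule genes among them, were at least 4-fold higher in members than in other nuclei of each library. Of these, 24 (35.8%) had an adjacent compared gene that was also 4-fold higher, as did 1.40% of the other genes. Pseudogenes were 12 (17.9%) of the 67 and 1.96% of all genes compared, and 25 (37.3%) were on chromosome V against 15.6% of all compared. Part of each figure follows from the rule. Its own genes include the neighbours F02H6.2, F02H6.1 and F02H6.3 and the pair C50E3.12 and C50E3.13. T11F8.2, F02H6.1 and F43D2.2 are pseudogenes, and T10C6.7, F14H3.6, F43D2.2, C50E3.12 and C50E3.13 lie on chromosome V. The figures were not taken without the rule genes. They describe a list picked on the same nuclei and carry no test.

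The genes outside the rule that were highest relative to all other nuclei were led by Y51A2D.23, a pseudogene on chromosome V. It stood at 73.4, 68.0, 68.3 and 61.9 CPM in members and at 4.62, 5.24, 5.91 and 5.97 in other nuclei, and it was nearly level across the members of the 4 libraries. R11H6.6, a pseudogene of chromosome V near F43D2.2, stood at 233, 246, 260 and 46.1 CPM against 18.7, 23.4, 20.6 and 4.51. The Skp1-related gene skr-11, annotated as a pseudogene, stood at 244, 228, 244 and 83.8 CPM against 22.3, 26.1, 20.5 and 8.83. In ent-1KO;ent-2KD both R11H6.6 and skr-11 were lower in members and in other nuclei alike.

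The group held few genes of known role. The myo-inositol transporter gene hmit-1.1 stood at 159, 153, 168 and 46.8 CPM in members and at 11.3, 11.4, 10.8 and 7.21 CPM in other nuclei. F02E8.4, on the X chromosome, stood at 183, 233, 200 and 208 CPM against 19.1, 27.9, 20.3 and 30.9, and was not lower in ent-1KO;ent-2KD. The ABC transporter gene mrp-4, also on the X, stood at 621, 774, 701 and 632 CPM in members and at 203, 227, 202 and 163 CPM in the other oocyte nuclei. The remaining genes of this group were Y73B6BL.14, Y39B6A.10, Y116A8C.48, H39E20.1, C32B5.6, C29G2.2 and K09D9.12, with lowest log2 ratios over the 4 libraries of 2.67 to 3.37. The genes farthest below other nuclei were Y75B7AL.2, T28B4.1, K01A2.3, exp-2, a potassium channel gene, and olrn-1. Their log2 ratios in the library nearest to 0 were -3.02 to -2.44.

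**Figure D3:**
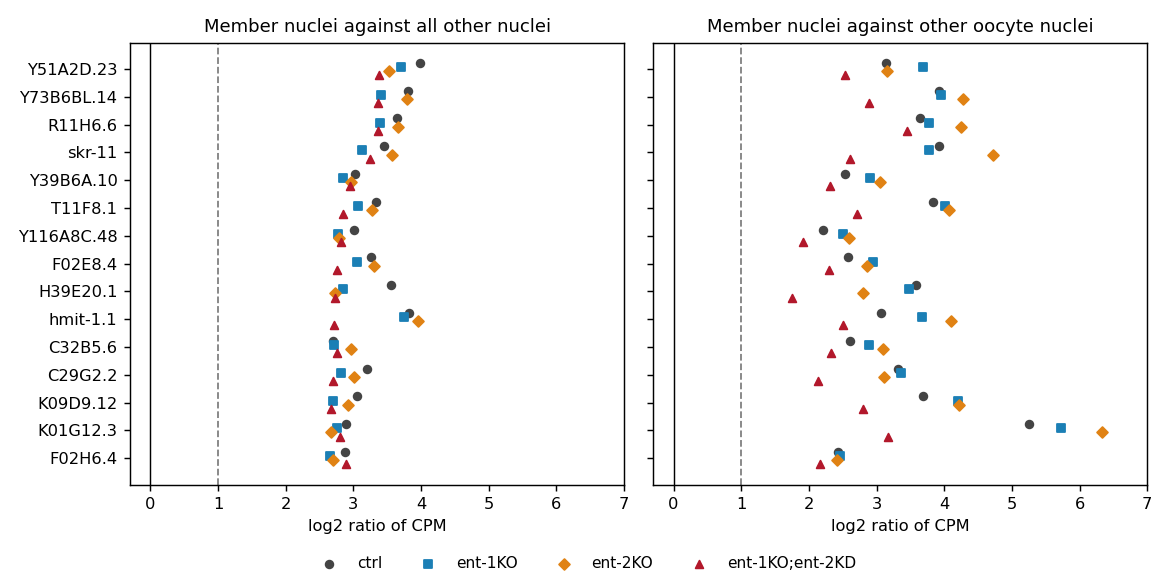
log2 ratio of CPM in member nuclei to all other nuclei (left) and to other oocyte nuclei (right) for the 15 genes outside the rule that were highest relative to other nuclei, one symbol per library; the dashed line marks 2-fold. Every symbol lies to the right of the line, and on the right panel the ent-1KO;ent-2KD symbols are lowest for most genes.

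Against the other oocyte nuclei, 241 of 6493 genes (3.71%) were at least 2-fold higher in the members of each library and 3 (0.0462%) at least 2-fold lower. Within single libraries both directions were common, with 729, 1026, 880 and 440 genes 2-fold higher and 225, 311, 320 and 205 lower, of 8072 to 9091 genes compared. Without ent-1KO;ent-2KD the higher genes numbered 514, all 241 among them. Oocyte genes differed as well. Of the growing oocyte genes the median log2 ratio was 0.23, 0.35, 0.41 and 0.71, beside -0.03, -0.03, -0.05 and -0.01 over all genes. The synaptonemal and axis genes had medians of -0.35, -0.60, -0.33 and -0.15. lin-41, which holds growing oocytes back from maturing too early, stood at 498, 484, 557 and 166 CPM in members and at 250, 247, 254 and 110 CPM in the other oocyte nuclei. The yolk receptor gene rme-2 stood at 808, 952, 1066 and 881 CPM against 703, 762, 918 and 548. The eggshell gene cbd-1 stood at 914, 1174, 1187 and 1462 CPM against 963, 1198, 1222 and 969, and was higher in members only in ent-1KO;ent-2KD.

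The genes most above the other oocyte nuclei included several of ubiquitin ligase adaptor families. The F-box gene fbxc-42 stood at 31.1, 54.98, 47.9 and 22.7 CPM in members and at 2.52, 3.16, 2.29 and 1.37 CPM in the other oocyte nuclei. The BTB domain gene btb-7 stood at 44.97, 53.95, 43.4 and 20.4 CPM against 1.26, 2.37, 1.52 and 1.64. Each was more than 10-fold higher in members than in the other oocyte nuclei of every library. Of 34 F-box genes compared 4 were 2-fold higher than the other oocyte nuclei in each library (fbxb-7, fbxc-32, fbxc-42 and fbxc-50), of 23 bath genes none, of 5 skr genes skr-11, and of 4 btb genes btb-7. Of all 6493 genes compared, 3.71% were 2-fold higher in each library, and the skr and btb counts rest on 1 gene each. Some of these genes were also read in nuclei with 3 or more excluded genes and under 4 of the growing oocyte genes. There fbxc-42 stood at 28.1, 26.9, 23.7 and 8.38 CPM, close to members in ctrl. The log2 ratio of members to those nuclei was 0.20 to 0.55 for fbxc-32 and -0.61 to 0.05 for fbxb-7. It was 1.09 to 3.31 for btb-7 and 1.63 to 3.73 for skr-11. Against those nuclei fbxb-7, fbxc-32 and fbxc-42 thus did not mark members at 2-fold in every library.

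Transcription factor families also had members in this group. Of 11 ceh homeobox genes compared, 5 were 2-fold higher in each library (ceh-39, ceh-49, ceh-58, ceh-83 and ceh-99). Of 29 nuclear hormone receptor genes 4 were (nhr-15, nhr-20, nhr-48 and nhr-181), beside 3.71% of all genes compared. ceh-99 stood at 61.5, 82.0, 70.5 and 27.2 CPM in members and at 2.201, 8.22, 1.91 and 2.46 CPM in the other oocyte nuclei. The zinc finger gene lsy-27 stood at 72.7, 96.6, 82.7 and 64.9 CPM against 5.34, 6.32, 4.57 and 6.83. The dehydrogenase family gene dhs-17 stood at 138, 144, 176 and 73.2 CPM against 8.80, 2.84, 8.58 and 6.83. All of ceh-99, lsy-27 and dhs-17 were also read in nuclei with 3 or more excluded genes and under 4 of the growing oocyte genes. There ceh-99 stood at 115, 66.1, 53.9 and 12.6 CPM, above members in ctrl only. There lsy-27 stood at 179, 137, 166 and 12.6 CPM, above members in all libraries but ent-1KO;ent-2KD. There dhs-17 stood at 86.8, 61.2, 69.0 and 101 CPM, above members in ent-1KO;ent-2KD only. None of these genes thus marked members against those nuclei in every library.

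Genes lower in members than in the other oocyte nuclei were few. The noncoding RNA linc-7 stood at 3042, 3165, 2254 and 759 CPM against 5756, 7195, 4973 and 1964, and the Argonaute gene ppw-2 at 145, 127, 162 and 272 CPM against 434, 487, 541 and 507. The 3 genes 2-fold lower in each library were clec-223, F09E10.15 and Y43F11A.6. Lower by a smaller margin was gld-1, a repressor of translation in meiotic prophase, at 159, 157, 168 and 335 CPM in members and 299, 361, 349 and 465 CPM in the other oocyte nuclei. Here the ent-1KO;ent-2KD members stood above those of the other libraries.

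X-linked genes took 4.07%, 3.84%, 3.75% and 4.43% of member UMIs, below the 6.90%, 7.49%, 6.88% and 9.79% of all other nuclei and close to the 4.47%, 4.29%, 4.04% and 4.60% of the other oocyte nuclei. Over protein-coding genes alone the shares were 3.05%, 2.84%, 2.86% and 3.83% in members and 2.94%, 2.54%, 2.68% and 3.72% in the other oocyte nuclei, so the order turned. This depended on nuclei with 1 or 2 excluded genes. With 0 excluded genes in both sets, the protein-coding shares were 2.41%, 2.32%, 2.50% and 3.46% against 2.76%, 2.46%, 2.28% and 3.62%. The order then turned in ent-2KO only. Without the X-linked linc-7 alone, the members still lay below the other oocyte nuclei, with 3.78%, 3.53%, 3.54% and 4.36% against 3.92%, 3.59%, 3.56% and 4.41%. The exclusion of nuclei bears on these shares: with no nuclei left out by the excluded genes, nuclei with 4 or more rule genes had 6.54%, 6.796%, 6.53% and 5.93% of their UMIs on the X. Of the 241 genes 2-fold above the other oocyte nuclei, 57 (23.7%) were X-linked, against 6.14% of the genes compared. In the single libraries 20.8%, 22.1%, 21.4% and 13.8% of X-linked genes were 2-fold higher, and 8.43%, 5.88%, 6.89% and 2.96% were 2-fold lower. Both shares were above those of every autosome, except for lower genes in ent-1KO;ent-2KD, where chromosome IV had 3.43%. The median log2 ratio of X-linked genes was 0.00, 0.04, 0.05 and 0.11. Of the 820 genes 2-fold below all other nuclei, 284 (34.6%) were X-linked, against 9.50%. Among nuclei with none of the 4 excluded genes in both sets, 132 genes were 2-fold higher, 16 (12.1%) of them X-linked against 3.39% of those compared.

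The genes outside the rule followed the number of rule genes. Among nuclei with 8 or more growing oocyte genes, the 15 highest genes of the comparison with other nuclei summed to 129, 207, 571 and 842 CPM in ctrl nuclei with 0, 1, 2 and 3 rule genes. They summed to 1517, 1965, 1968 and 2790 CPM with 4, 5, 6 and 7 to 10 rule genes. In ent-1KO;ent-2KD the same sums were 52.3, 149, 460 and 645, and then 883, 1084, 1062 and 1332 CPM. Between 3 and 4 rule genes, at the threshold, the ctrl sum went from 842 (739 to 954) to 1517 (1373 to 1672) CPM, and nuclei below the threshold held these genes at lower levels. The 15 genes highest against the other oocyte nuclei more than doubled there in ctrl, from 179 to 436 CPM, and went from 176 to 374 CPM in ent-1KO;ent-2KD. Both lists were picked for being high in members, so their climb is a description. The 12 growing oocyte genes went from 5592 to 7191 CPM in ctrl and from 4390 to 10144 CPM in ent-1KO;ent-2KD between the same ends.

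**Figure D4:**
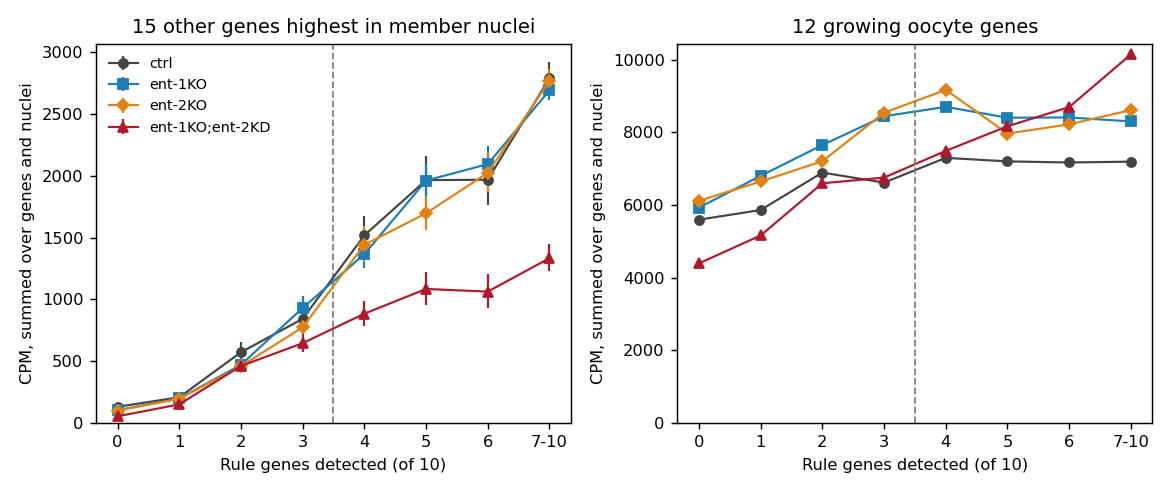
Summed CPM of the 15 other genes highest in member nuclei (left) and of the 12 growing oocyte genes (right) by number of rule genes detected, over nuclei with 8 or more growing oocyte genes, with 95% Poisson intervals; the dashed line is the threshold. The left panel climbs on both sides of the threshold in all 4 libraries, to 2790 CPM in ctrl and 1332 CPM in ent-1KO;ent-2KD.

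Members were also grouped on other genes, by clustering all nuclei with the 14 rule and excluded genes left out. Each gene was centred on its mean within each library, and the libraries were not integrated otherwise. Somatic nuclei were 43.1%, 38.7%, 35.1% and 71.4% of the libraries, and the part of the centring in the grouping was not tested. Of 50 clusters with 20 or more nuclei, cluster 11 held 883 members (42.9%), and members were 82.1% of its 1076 nuclei. Its leading genes were R11H6.6, hmit-1.1, Y73B6BL.288, skr-11, T11F8.1 and T10C6.10. Clusters 2 and 6 held a further 310 (15.1%) and 291 (14.1%) members. Cluster 6 also held 1074 (72.6%) of the nuclei that the excluded genes left out, so these members grouped with most of such nuclei. Cluster 11 held 214, 389, 280 and 0 members of the 4 libraries. The ent-1KO;ent-2KD members lay instead in cluster 3 (99, or 41.9%) and cluster 21 (69, or 29.2%), of whose nuclei 4418 of 4420 and 611 of 611 came from that library. After the centring, members of ent-1KO;ent-2KD thus lay with their own library and not with the members of the others. The library and the condition cannot be told apart.

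Members of each mutant library were then compared with ctrl members, a comparison in which all 3 share the ctrl library. Of genes with at least 20 CPM in 1 of the 2 libraries and 50 UMIs over both, 32 (0.503%) were at least 2-fold higher and 179 (2.81%) at least 2-fold lower in ent-1KO. In ent-2KO 96 (1.50%) were higher and 144 (2.26%) lower, and in ent-1KO;ent-2KD 578 (8.77%) were higher and 486 (7.37%) lower. The median over all genes was 0.04, -0.02 and 0.04 on the log2 scale.

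The rule genes were lower in ent-1KO;ent-2KD members: 7 of 10 by at least 2-fold, the others being F02H6.3, F14H3.6 and T11F8.2. Their summed level was 4326, 4441, 4638 and 2100 CPM, a log2 ratio to ctrl of -1.04 (-1.11 to -0.98) in ent-1KO;ent-2KD, 0.04 in ent-1KO and 0.10 in ent-2KO. Because membership reads these genes, the levels were also taken over all oocyte nuclei with under 3 excluded genes, members or not. There the 10 genes summed to 1483, 1580, 1496 and 763 CPM, with counting intervals of 1448 to 1519 in ctrl and 739 to 788 in ent-1KO;ent-2KD. The excluded genes still act on this set. Over all 1459, 2958, 2298 and 1395 nuclei with 8 or more growing oocyte genes, with none left out, an alternative added after seeing the data, the 10 genes summed to 1596, 1770, 1647 and 1044 CPM (1563 to 1630 in ctrl and 1021 to 1067 in ent-1KO;ent-2KD). The level in ent-1KO;ent-2KD was lowest in both sets, by a smaller margin when none was left out.

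The rule genes were not lower to the same degree. Over all oocyte nuclei with under 3 excluded genes, F02H6.1 stood at 69.9, 66.7, 77.4 and 10.6 CPM. T10C6.7 stood at 219, 263, 268 and 76.9 CPM. F14H3.6, however, stood at 320, 323, 308 and 303 CPM, with intervals of 304 to 337 in ctrl and 288 to 319 in ent-1KO;ent-2KD that overlap. With no nuclei left out, F14H3.6 stood at 315, 339, 319 and 386 CPM and was highest in ent-1KO;ent-2KD (373 to 400), while F02H6.1 (76.8, 69.9, 75.8 and 16.9 CPM) and T10C6.7 (258, 313, 304 and 105.0 CPM) stayed lowest there. F02H6.2 (155, 151, 143 and 69.8 CPM) and F02H6.3 (110, 102, 102 and 71.4 CPM) lay in between. The 15 highest genes outside the rule summed to 848, 864, 794 and 445 CPM over the same nuclei, while the growing oocyte genes stood at 6285, 7113, 7102 and 6145 CPM.

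Most oocyte lists moved less than the rule genes. Of 12 growing oocyte genes only lin-41 was 2-fold lower in ent-1KO;ent-2KD members than in ctrl members, with a log2 ratio of -1.58, and none was higher. Of all genes compared, 7.37% were lower in ent-1KO;ent-2KD and 8.77% higher, and 2.26% were lower in ent-2KO. Of 29 maternal RNA-binding regulators 5 were higher (gld-1, daz-1, pos-1, cgh-1 and car-1) and lin-41 was lower. pos-1, which controls maternal transcripts in the embryo, stood at 565, 690, 778 and 1157 CPM. Among 14 eggshell genes, cpg-3 was lower in ent-1KO;ent-2KD, at 1132, 1329, 1226 and 263 CPM, and perm-2 and perm-4 were lower in ent-2KO. perm-4 stood at 208, 158, 77.8 and 122 CPM, lowest in ent-2KO.

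In the single knockouts few list genes differed from ctrl, as few genes did over all genes compared (0.503% and 2.81% in ent-1KO, 1.50% and 2.26% in ent-2KO). Of the synaptonemal, pairing, recombination, replication, P granule and Argonaute lists, no gene was 2-fold different from ctrl in ent-1KO or ent-2KO members. In ent-1KO;ent-2KD, where 8.77% of all genes were higher and 7.37% lower, 2 of 14 P granule genes were lower (glh-2 and mip-1), the Argonaute genes csr-1, wago-4 and ppw-1 were lower, and the Piwi gene prg-1 was higher, of 20. glh-2, a Vasa-like helicase gene of the P granule, stood at 933, 932, 1065 and 397 CPM, and prg-1 at 142.2, 153, 173 and 349 CPM. sygl-1 was lower in ent-1KO;ent-2KD and no other gene of its list of 17 was 2-fold different. Of 7 purine genes compared none was 2-fold different in any library, and in ent-1KO;ent-2KD their median log2 ratio was 0.54.

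Transcripts of other cell types moved with these differences. In members the 38 sperm genes summed to 167, 114, 187 and 603 CPM, the 12 muscle genes to 684, 890, 1338 and 2709 CPM, and the 16 intestine genes to 4019, 4395, 2951 and 6882 CPM. These 3 lists were highest in ent-1KO;ent-2KD. So were the neuron genes (207, 256, 261 and 314 CPM), the pharynx genes (47.6, 25.6, 21.7 and 61.2 CPM) and the gonadal sheath and spermatheca genes (724, 648, 805 and 983 CPM). The hypodermis genes were highest in ctrl, at 3537, 2649, 1960 and 2917 CPM, and the embryo genes too, at 127, 98.3, 112 and 111.8 CPM. The sperm level of ent-1KO;ent-2KD was carried by members near the threshold. It was 1053 CPM in members with 4 or 5 rule genes, 229.9 with 6 or 7 and 88.0 with 8 to 10, against 153, 107 and 254 CPM in ctrl, so that the direction turned at 8 to 10 rule genes. In its somatic nuclei and in its library as a whole the muscle genes were also highest, and the part of these transcripts in the differences between members was not tested. Of the sperm genes, 4 had no UMI in the members of ctrl and 0 had none in those of ent-1KO;ent-2KD. The share of mitochondrial UMIs in members was 0.263%, 0.266%, 0.228% and 0.609%.

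**Figure D5:**
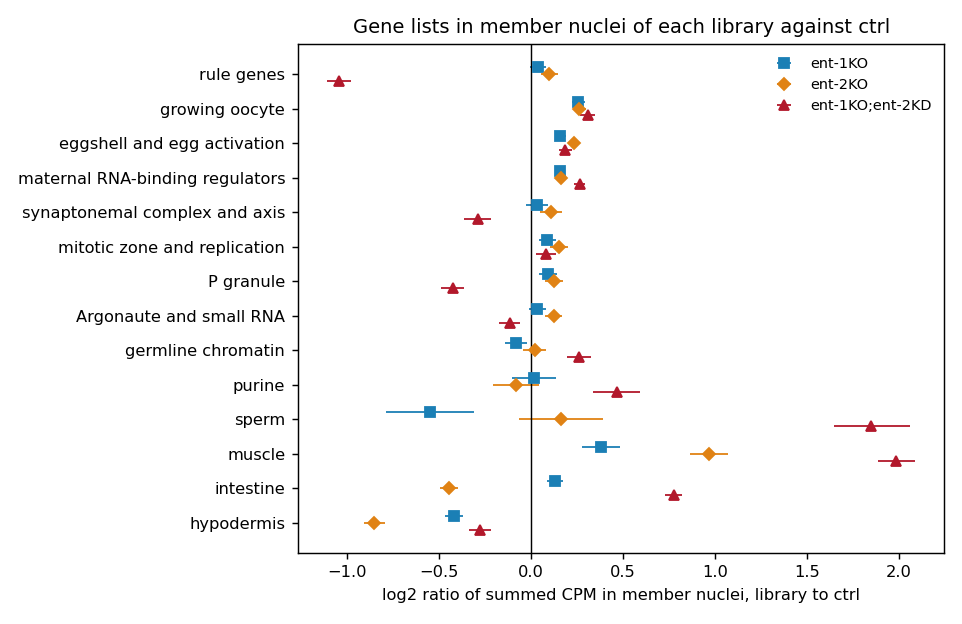
log2 ratio of summed CPM in member nuclei of each mutant library to ctrl member nuclei for 14 gene lists, with 95% counting intervals. The rule genes of ent-1KO;ent-2KD lie at -1.04 and its sperm genes at 1.85, a value that rests on members with under 8 rule genes, while the oocyte lists of all 3 libraries lie between 0 and 0.5.

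The gene farthest below ctrl members in ent-1KO;ent-2KD was C05D9.12, a noncoding RNA of the X chromosome with 1644, 1498, 1381 and 51.4 CPM. It was detected in 430 of 449 ctrl members and in 47 of 236 ent-1KO;ent-2KD members. The other oocyte nuclei showed the same order, with 2672, 2753, 2172 and 71.3 CPM, so this difference was not particular to members. F14H3.5, which lies between F14H3.4 and F14H3.6, was at 155, 178, 152.3 and 12.1 CPM in members and at 10.4, 9.17, 8.77 and 4.65 CPM in the other oocyte nuclei. Its neighbour F14H3.6 stayed at 702 CPM in ent-1KO;ent-2KD members. The chemoreceptor family gene srt-47 stood at 224, 169, 226 and 9.82 CPM in members, against 40.9, 32.9, 55.7 and 23.5 CPM. osm-8 and C30G12.1 completed the 5 lowest.

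Under the same limits, the gene farthest above ctrl was T22B7.7, with 1, 8, 8 and 111 UMIs in members, followed by fipr-9, C52D10.3, C08F11.13 and E03H12.5. T22B7.7 was higher still outside the members of ent-1KO;ent-2KD, at 231 CPM in other nuclei against 83.8 CPM in members. Of the UMIs of C52D10.3, C08F11.13 and E03H12.5 in ent-1KO;ent-2KD members, 69.8%, 71.3% and 62.9% came from 3 nuclei. For fipr-9, 70 of the 74 UMIs in ent-1KO;ent-2KD members came from 1 nucleus, so its level is that of 1 nucleus. In ent-2KO the 3 highest genes, C10G8.4, ZK813.2 and D1086.10, had 1274, 831 and 2521 UMIs, of which 1237, 792 and 2424 were in 1 nucleus. Of the 96 genes higher in ent-2KO members, 43 had at least 50% of their UMIs in 1 nucleus, and for 38 of these it was the same nucleus of 35702 UMIs. With the highest nucleus of each gene left out, an alternative added after seeing the data, the higher genes numbered 28, 44 and 479 and the lower genes 153, 141 and 470 in ent-1KO, ent-2KO and ent-1KO;ent-2KD.

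Lower in ent-2KO members were C07G3.8, ugt-64 and ptr-22. The glucuronosyltransferase family gene ugt-64 stood at 217, 260, 22.6 and 138 CPM, and C07G3.8 had 62, 111 and 2 UMIs in the first 3 libraries. Both lie close together on chromosome V. In ent-1KO members flp-11, T05A8.3 and C17H12.8 were highest relative to ctrl, with 66, 67 and 65 UMIs against 4, 5 and 5. For T05A8.3, 41 of the 67 UMIs were in 1 nucleus, and the log2 ratio was 2.66 with it and 1.58 with the highest nucleus of each library left out. In the same members tyr-6, oat-1 and ugt-25 were lowest. flp-11, a neuropeptide gene, stood at 220 CPM in somatic nuclei of ent-1KO and 28.2 CPM in those of ctrl, so the somatic nuclei differed in the same direction.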

How the data were processed

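Nuclei of 4 libraries, 1 per condition, were analysed from the deposited raw UMI counts per gene and nucleus barcode. Per the labels and the study's methods, the authors aligned reads to the WS282 genome with Cell Ranger 6.0 (the matrix header names 6.1.2) and removed doublets with DoubletFinder. Whether the deposited barcodes come from before or after that step is not given in the sources used here. All 52147 barcodes were used, a number below the nuclei the study counts after its own filters. The 10 rule genes, the 4 excluded genes and the 23 gene lists were chosen with earlier results of these data known.

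The counts of each set were added up over its nuclei and scaled to CPM, and ratios were taken after adding 0.5 UMIs. Genes with at least 20 UMIs in one of the sets compared entered, and a 2-fold ratio (1 on the log2 scale) was counted. Between conditions, at least 20 CPM in 1 library and 50 UMIs over both were required. The named genes were the rule and excluded genes and those of their clones, the 15 highest and 5 lowest genes against other nuclei, the 5 highest and 5 lowest in ent-1KO;ent-2KD and 3 of each in the single knockouts, ent-1, ent-2, and genes of the lists. The comparison with other oocyte nuclei, in place of a wider set with 4 or more of the 12 genes, and the genes named from it were chosen after seeing the data. For purine genes, 11 names were found among the features.

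Scrublet (from scanpy 1.11.5) gave each nucleus a doublet score. It marked only 1, 3, 0 and 0 nuclei by itself, so no nucleus was removed as a doublet, and leaving out the highest scores at 0.8% of a library per 1000 nuclei was an alternative. Clusters came from scanpy and leidenalg 0.10.2. Python 3.11.15 was used with numpy 2.4.6, scipy 1.17.1, pandas 2.3.3, scikit-learn 1.9.0 and matplotlib 3.10.9. The counting scripts were tested on simulated data. Alternatives changed the rule's minimum, the excluded genes, depth, doublets, the UMIs added, scaling, expression minimum, free RNA and the libraries used.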

Additional observations from a re-analysis of the deposited data

How the results depend on the processing

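Of the values that answer a comparison, 84 changed little under the alternatives and 76 moved. The cause was not tested, other than that a stricter rule or minimum leaves fewer nuclei or genes. Values are in the order ctrl, ent-1KO, ent-2KO and ent-1KO;ent-2KD. The share of members was 5.00%, 6.66%, 6.09% and 2.74% with 3 or more rule genes, 2.90%, 4.22%, 4.01% and 1.17% with 5 or more, 6.23%, 8.42%, 8.11% and 4.16% with no nuclei left out by the excluded genes, 0.471%, 0.696%, 0.805% and 0.0686% after thinning to 500 UMIs, and 5.56%, 6.47%, 6.32% and 2.27% among nuclei with at least 1000 UMIs. With the highest doublet scores left out it moved in ent-2KO (4.54%) and ent-1KO;ent-2KD (1.57%). The ent-1KO;ent-2KD share was lowest in each of these settings.

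The X share of UMIs was 4.33%, 3.98%, 3.81% and 4.57% with 3 or more rule genes, 6.54%, 6.80%, 6.53% and 5.93% with no nuclei left out, 3.91%, 3.75%, 3.69% and 4.02% without the highest doublet scores, 3.44%, 3.34%, 3.37% and 4.09% in members with 0 excluded genes, and 3.05%, 2.84%, 2.86% and 3.83% over protein-coding genes. With 5 or more rule genes it moved in ctrl (4.03%) and ent-1KO;ent-2KD (4.27%), and after thinning in ctrl (3.92%), ent-1KO (4.90%) and ent-1KO;ent-2KD (4.59%). With no nuclei left out, ent-1KO;ent-2KD thus turned from the highest to the lowest.

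Against ctrl members, the genes higher and lower after thinning were 95 and 24 in ent-1KO, 28 and 8 in ent-2KO and 54 and 156 in ent-1KO;ent-2KD, few nuclei being left. With 10 UMIs and no CPM minimum they were 294 and 921, 477 and 713, and 2085 and 1050. With no nuclei left out, ent-1KO had 19 and 115, ent-2KO 79 lower and ent-1KO;ent-2KD 760 lower genes. Members with 0 excluded genes gave 106.0 lower genes in ent-1KO and 77 in ent-2KO. After subtracting the library profile ent-1KO had 164 higher and 90 lower genes, and without the highest nucleus of each gene ent-2KO had 44 higher genes. Of the named genes, the log2 ratio of ent-1KO to ctrl turned for flp-11 (-1.11) and T05A8.3 (-1.11) after that subtraction, and for tyr-6 (0.97) and ugt-25 (1.82) after thinning. Of the other named values 73 moved and 483 did not.

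Against other nuclei, 5 UMIs added in place of 0.5 gave 509 lower genes, and leaving out each library in turn gave 294 to 426 higher and 839 to 1502 lower genes, the last without ctrl. Against other oocyte nuclei the range was 243 to 514 higher and 3 to 22 lower genes, both highest without ent-1KO;ent-2KD; without ctrl and without ent-2KO 10 and 5 were lower. With 0 excluded genes in both sets, 132 genes were higher and 0 lower. No paired analysis was possible because each condition has 1 library. All alternatives planned were run. Those with members of 0 excluded genes, the highest nucleus left out, protein-coding genes only, other oocyte nuclei, oocyte nuclei with none left out and libraries left out were added after seeing the data. Depth limits detection of single rule genes in shallow nuclei, so members are undercounted there.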

Other observations

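The nuclei left out of the member set carried rule genes as well. Nuclei with 4 or more rule genes and 3 or 4 of the excluded genes held the rule genes at 2406, 2535, 2502 and 1736 CPM and the excluded genes at 13665, 14660, 13951 and 4194 CPM in ctrl, ent-1KO, ent-2KO and ent-1KO;ent-2KD. Members held the excluded genes at 475, 476, 489 and 350 CPM. The left-out nuclei had lower growing oocyte levels than members, 3546, 4119, 3914 and 6765 CPM, and took 9.25%, 9.71%, 9.43% and 6.75% of their UMIs from X-linked genes. Their median depths were 4332, 5503, 4730 and 5750 UMIs, above those of members in every library.

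Against nuclei with 3 or more excluded genes and under 4 of the 12 growing oocyte genes, 500 of 7351 genes (6.80%) were at least 2-fold higher in the members of each library and 1053 (14.3%) at least 2-fold lower. The rules of both sets read oocyte genes or genes found with them, so this is a description, and the genes farthest above were mostly known from oocytes. lin-41 stood at 498, 484, 557 and 166 CPM in members and at 30.6, 19.6, 30.2 and 16.8 CPM in those nuclei, and egg-2, an eggshell receptor gene, at 486, 516, 533 and 366 CPM against 58.7, 56.3, 51.7 and 37.7. oma-1, needed for oocyte maturation, stood at 304, 370, 347 and 328 CPM against 43.4, 53.9, 43.1 and 50.3.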
